A study of Mus musculus with 11 samples.

Results

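The 37 endothelial genes described here are a list of receptors, transcription factors, junction proteins and secreted factors that mark or act in the lining of blood and lymphatic vessels, chosen by gene symbol among the 24427 genes of the deposited tables. Of them, 35 were found under the listed symbol and 2 under their current symbols, Gpr116 as Adgrf5 and Eltd1 as Adgrl4. All 37 are annotated as protein coding. The 11 libraries in 4 groups hold messenger RNA of cells sorted from the developing kidney of the outbred mouse strain CFW. Kidneys of the genotype Six2TGC/+ at the embryonic stage E16.5 gave Six2+ cells (n = 3) and the remaining Six2- cells (n = 3). Kidneys of the genotype Cited1tagRFP/+ at E16.5 gave Cited1+ cells (n = 3). Six2TGC/+ kidneys at postnatal day 2 (P2) gave a further set of Six2+ cells (n = 2). Every group was therefore heterozygous for a reporter allele, and the Cited1+ cells differ from the others in the allele as well as in the gate. The Cited1+ and P2 Six2+ groups differ at once in age, reporter allele and sort marker, which cannot be told apart.

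Endothelial cells sense vascular endothelial growth factor (VEGF) through the receptor tyrosine kinases Kdr, Flt1 and Flt4, and vessel maturation runs through the angiopoietin receptor Tek and its relative Tie1. ETS and SoxF transcription factors establish and keep the endothelial programme, while adhesion proteins such as Pecam1 and Esam hold neighbouring cells together. In the developing kidney, vessels grow around the nephron-forming tips, where Six2 marks nephron progenitors and Cited1 the least committed of them, and nephron-derived VEGF draws capillaries into the forming glomerulus. Endothelial cells arise outside the Six2 lineage, so in a Six2 sort they belong to the Six2- fraction together with stroma, blood cells and differentiated epithelium.

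The labels were checked against the markers. Six2 lay between 314.8 and 353.8 in the E16.5 Six2+ libraries and at 2.72, 2.91 and 17.0 in Six2- replicates 1, 2 and 3. In P2 Six2+ cells it stood at 128.6 and 145.9. Cited1 lay between 192.7 and 214.6 in the Cited1+ libraries and at 2.83 and 4.68 in P2 Six2+ cells. All values are on the scale of reads divided by transcript length and sequencing depth (RPKM), so levels of different genes can be set side by side per length. From the steps between low values, library depth is estimated at 16600000 to 44000000 reads. With the median annotated transcript length of each gene, 1 read is estimated at 0.0034 to 0.105 over the members. This is rough, because Flt1 was listed at 0.00505 in Six2+ replicate 3, below its lowest estimate of 0.0111. Whether replicate libraries are different animals is not stated in the labels, so p-values measure the spread between libraries, which may be technical.

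The promoters of the 3 VEGF receptor genes show the sequence that surrounds the start of genes whose levels parted in these sorts: Kdr and Flt1 were much lower in Six2+ than in Six2- cells, and Flt4 was not. Each runs 5′ to 3′ on the gene's strand, over 300 bases around the start, from RefSeq on build GRCm38.p6. Capitals mark the ETS core motifs AGGAAG and CCGGAA, searched on both strands. The Kdr promoter (chr5:75978406-75978705, minus strand) holds 1 match to CCGGAA, on the opposite strand. The Flt1 promoter (chr5:147725962-147726261, minus strand) holds 2 matches to AGGAAG. The Flt4 promoter (chr11:49609429-49609728, plus strand) holds neither in this window.
Kdr: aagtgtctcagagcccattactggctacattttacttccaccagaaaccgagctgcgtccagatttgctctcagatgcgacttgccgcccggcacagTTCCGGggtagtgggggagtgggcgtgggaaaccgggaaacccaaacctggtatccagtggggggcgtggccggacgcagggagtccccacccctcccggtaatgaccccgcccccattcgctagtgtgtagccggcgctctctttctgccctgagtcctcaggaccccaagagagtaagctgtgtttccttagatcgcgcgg
Flt1: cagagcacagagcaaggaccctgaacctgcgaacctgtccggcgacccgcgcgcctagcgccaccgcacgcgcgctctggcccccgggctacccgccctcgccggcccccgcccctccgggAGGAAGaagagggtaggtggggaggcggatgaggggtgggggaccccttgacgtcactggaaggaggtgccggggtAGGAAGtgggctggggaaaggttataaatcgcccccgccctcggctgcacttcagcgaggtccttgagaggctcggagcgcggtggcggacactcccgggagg
Flt4: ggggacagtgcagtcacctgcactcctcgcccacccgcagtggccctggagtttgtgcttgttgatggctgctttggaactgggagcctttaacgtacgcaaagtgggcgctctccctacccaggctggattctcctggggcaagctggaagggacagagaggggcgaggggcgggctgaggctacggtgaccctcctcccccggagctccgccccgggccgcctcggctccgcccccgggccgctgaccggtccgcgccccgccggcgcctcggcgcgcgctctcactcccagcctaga
RefSeq promoters were matched for 17 members, with 23 start sites. AGGAAG was found in 12 of those 23 promoters (52.2%) against 35.4% of the 32851 promoters in the table. CCGGAA was found in 2 of the 23 (8.70%) against 14.9% of all. At least 1 of the motifs was present in 56.5% of the members' promoters against 45.2% of all. A match is a description of letters and not a binding site.

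In E16.5 kidneys the endothelial genes were, with few exceptions, depleted from the Six2+ sort. Of the 37 members, 25 had a mean in Six2+ cells below 10% of their mean in Six2- cells, and 10 lay between 10% and 50%. The remaining members were Flt4, at 102%, and Ramp2, at 274%. The median over the 37 was 4.26%, and the lowest was the ETS factor Fli1 at 0.754%. With no filter on low values, limma on log2(value + 1) called 34 of the 37 lower in Six2+ cells and 1 higher, at a Benjamini-Hochberg adjusted p under 0.05. Over all 18634 genes in that fit 16.7% were called lower and 13.9% higher. For 35 members every Six2+ library lay below every Six2- library, a pattern found in 23.0% of all genes. The median log2 fold change was -1.25 over the 37 members, on a scale that understates the change of low genes. In bulk samples fewer cells of a type and less RNA per cell cannot be told apart.

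**Figure D1:**
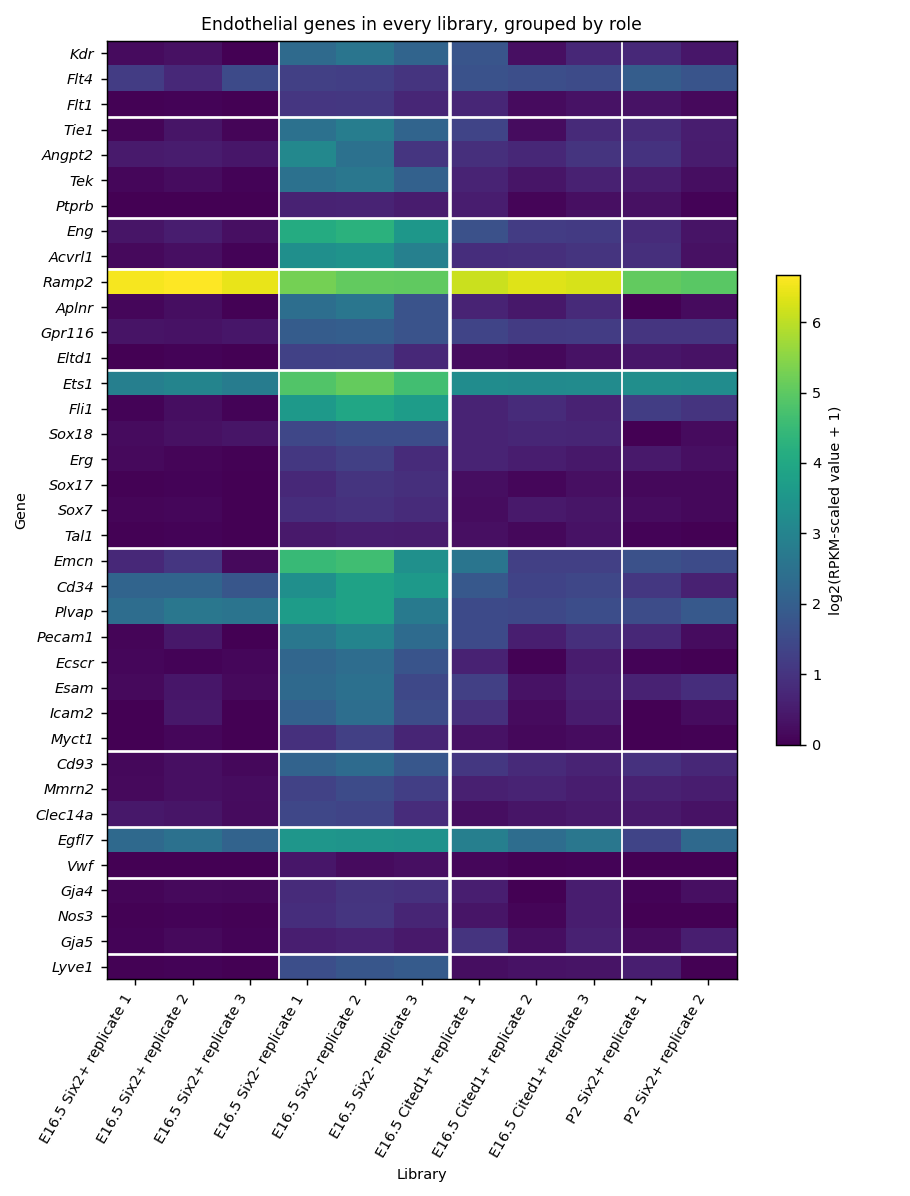
Level of each of the 37 endothelial genes (rows, grouped by role) in each of the 11 libraries (columns), as colour on the scale log2(RPKM-scaled value + 1). The 3 Six2- columns are brightest for most genes, and Ramp2 is bright in every column.

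**Figure D2:**
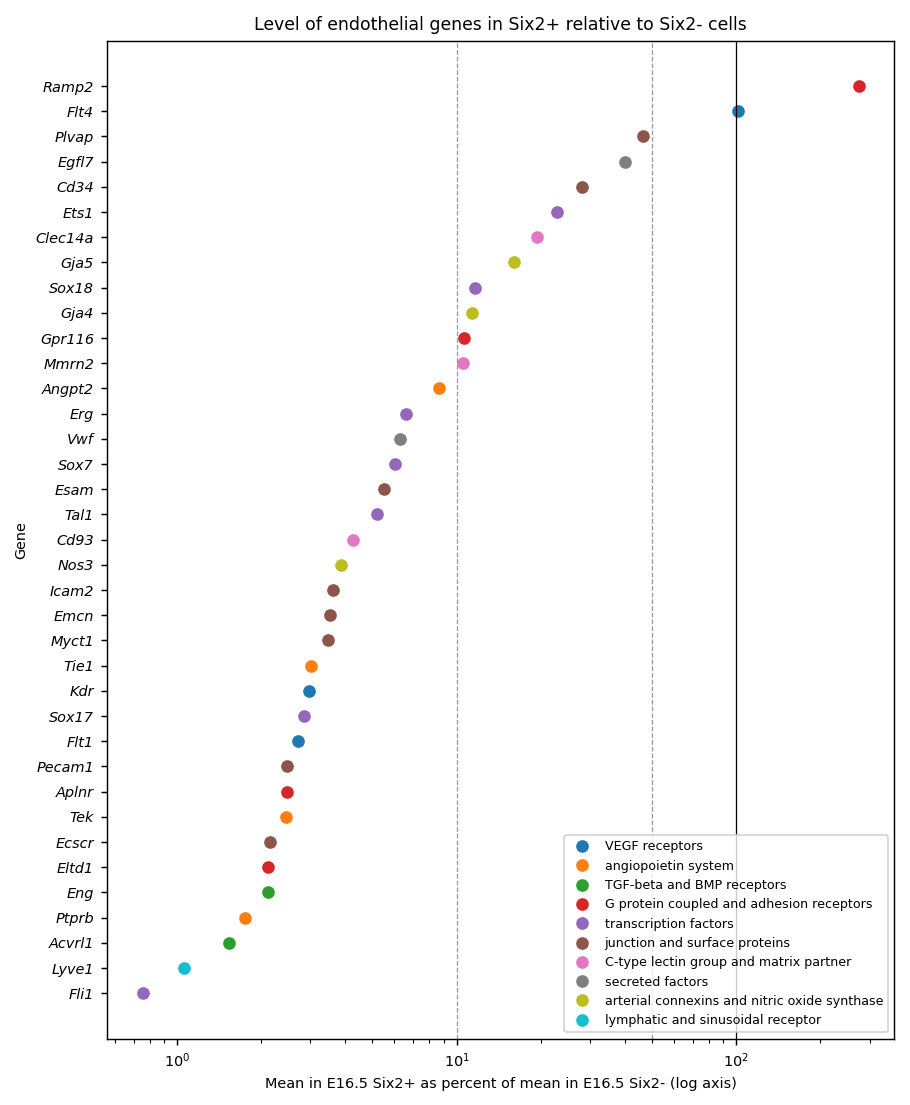
Mean level of each endothelial gene in E16.5 Six2+ cells as a percentage of its mean in Six2- cells, on a log axis, coloured by role, with dashed lines at 10% and 50% and a solid line at 100%. A total of 25 genes lie left of 10%, and Flt4 and Ramp2 lie right of 100%.

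The filtered test kept genes that averaged 1 or more over the 6 libraries. It kept 23 of the 37 members, and 17 of these passed only through the Six2- libraries, so their number called says little by itself. In this fit 21 members were called lower, against 18.1% of the 11882 genes tested, and Ramp2 was called higher, against 20.5%. Of all genes called, 53.2% were higher in Six2+ cells, and 42.3% when libraries were rescaled to the same total. The median log2 fold change was -1.90 over the 23 members and 0.12 over all genes tested. Adjusted p-values below are from this limma fit unless the unfiltered fit is named.

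Among the VEGF receptors, Kdr, the main signalling receptor of blood vessel endothelium, stood at 0.139, 0.228 and 0 in Six2+ replicates 1, 2 and 3 and at 3.94, 4.99 and 3.42 in the Six2- libraries. The groups were far apart, with a log2 fold change of -2.18 (SE 0.17, adjusted p = 1.5e-05). Flt1, a high-affinity receptor that also acts as a decoy for VEGF, stood at 0.0302, 0.0412 and 0.00505 in Six2+ and at 1.08, 1.10 and 0.633 in Six2-. It fell below the filter and was lower in the unfiltered fit (log2 fold change -0.91, adjusted p = 0.00154). Flt4, the receptor for VEGF-C best known from lymphatic vessels, stood at 1.28, 0.710 and 1.82 in Six2+ and at 1.41, 1.34 and 1.005 in Six2-. These values overlapped, and the log2 fold change was -0.01 (SE 0.20, 95% interval -0.48 to 0.45, adjusted p = 0.971). Its sign turned when Six2+ replicate 2 was left out (0.18) or Six2- replicate 1 (0.04) or 2 (0.02).

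The angiopoietin system followed Kdr. Tek, the angiopoietin receptor, stood at 0.0909, 0.176 and 0.0539 in Six2+ against 4.60, 5.27 and 3.16 in Six2-, a log2 fold change of -2.25 (SE 0.18, adjusted p = 1.92e-05). Tie1, an orphan receptor that modulates Tek, stood at 0.0734, 0.294 and 0.0572 against 4.58, 6.10 and 3.39, a log2 fold change of -2.30 (SE 0.20, adjusted p = 2.98e-05). Both receptors kept little of their Six2- level in Six2+ cells, 2.46% for Tek and 3.02% for Tie1. Angpt2, a ligand of Tek released by endothelium during remodelling, had the widest spread of the group. It stood at 0.393, 0.429 and 0.330 in Six2+ against 7.67, 4.64 and 1.04 in Six2-, with a log2 fold change of -1.75 (SE 0.44, adjusted p = 0.0133). All Six2- libraries were higher, replicate 3 by the least; without a filter the adjusted p was 0.0478, and there the call was lost without any one of Six2+ replicates 1, 2 or 3 (adjusted p = 0.113, 0.106 and 0.116) or Six2- replicates 1 or 2 (0.0897 and 0.129). Ptprb, the endothelial phosphatase that restrains Tek, lay at most at 0.0152 in Six2+ and at least at 0.418 in Six2- and was lower in the unfiltered fit (adjusted p = 0.00045).

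Both endothelial receptors of the TGF-beta and BMP branch were among the most depleted members. Eng, the co-receptor endoglin, stood at 0.292, 0.457 and 0.204 in Six2+ and at 16.3, 18.2 and 10.5 in Six2-, 47.2-fold higher in the latter. Its log2 fold change was -3.57 (SE 0.21, adjusted p = 2.59e-06). Acvrl1, the type I receptor ALK1 that signals with endoglin, stood at 0.119, 0.219 and 0.0502 against 9.04, 9.69 and 6.47, with a log2 fold change of -3.04 (SE 0.17, adjusted p = 2.53e-06). The groups were well separated for both. Exons of Eng overlap those of Fpgs on the opposite strand, and Fpgs was not called (log2 fold change 0.10, adjusted p = 0.646).

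The receptors coupled to G proteins held the single member that rose. Ramp2, the accessory protein that turns the calcitonin receptor-like receptor Calcrl into a receptor for adrenomedullin, stood at 94.3, 100.5 and 85.8 in Six2+ and at 37.9, 32.4 and 32.1 in Six2-. Every Six2+ library was above every Six2- library, and the log2 fold change was 1.43 (SE 0.13, 95% interval 1.14 to 1.72, adjusted p = 3.16e-05). Ramp2 alone made up most of the summed level of the 37 members in Six2+ cells, which was 106.7 to 127.8 with it and 20.95 to 27.3 without. In Six2- cells the sum of the other 36 was 131.3 to 209.5. Ramp2 (GRCm38 chr11:101246028-101259546) shares exon sequence on its own strand with Vps25, an ESCRT-II subunit. Vps25 stood at 42.2 ± 3.55 (SD, n = 3) in Six2+ and 39.0 ± 0.738 (SD, n = 3) in Six2- and was not called (log2 fold change 0.11, SE 0.12, adjusted p = 0.481).

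Calcrl itself, named after its values were seen, went the other way in this comparison. It stood at 4.44, 2.65 and 2.32 in Six2+ and at 11.9, 11.5 and 5.80 in Six2-, with a log2 fold change of -1.35 (SE 0.28, adjusted p = 0.00494). Aplnr, the apelin receptor of growing vessels, stood at 0.0799, 0.182 and 0.0267 in Six2+ and at 4.29, 5.10 and 2.29 in Six2- (log2 fold change -2.11, SE 0.23, adjusted p = 0.000121). The adhesion receptor Gpr116 kept 10.6% of its Six2- level in Six2+ cells, with 0.255 to 0.316 against 2.25 to 3.002 (log2 fold change -1.52, SE 0.15, adjusted p = 6.32e-05). The related Eltd1 lay at 0.0154 to 0.0442 against 0.705 to 1.48 and was lower in the unfiltered fit (adjusted p = 0.00316).

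The 7 transcription factors were all lower in Six2+ cells, but from very different levels. Ets1, an ETS factor also active in stroma and lymphocytes, was the highest member of the group and stayed well above zero in the progenitors. It stood at 6.40, 6.99 and 6.01 in Six2+ and at 27.7, 32.9 and 24.1 in Six2-, which is 22.9% of the Six2- level (log2 fold change -1.96, SE 0.14, adjusted p = 9.89e-06). Fli1, an ETS factor of endothelium and blood cells, stood at 0.0523, 0.179 and 0.0499 against 11.1, 14.5 and 11.8 (log2 fold change -3.61, SE 0.15, adjusted p = 4.97e-07). The third ETS member, Erg, lay at 0.0183 to 0.130 against 0.768 to 1.40 and was lower without the filter (adjusted p = 0.00205).

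The SoxF factors Sox7, Sox17 and Sox18 drive endothelial and arterial differentiation together. Sox18 stood at 0.147, 0.224 and 0.294 in Six2+ and at 1.69, 1.99 and 2.003 in Six2- (log2 fold change -1.25, SE 0.15, adjusted p = 0.000188). It kept 11.7% of its Six2- level, against 6.03% for Sox7 and 2.86% for Sox17. Sox7 and Sox17 fell below the filter and were lower in the unfiltered fit (adjusted p = 0.000224 and 0.000406). So was Tal1, a basic helix-loop-helix factor of blood and endothelial precursors, which did not exceed 0.451 in any library (adjusted p = 0.000247).

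Junction and surface proteins were lower in Six2+ cells as well, with 2 of the 8 members keeping more than 25% of their Six2- level. Emcn, the sialomucin endomucin of capillaries and veins, stood at 0.715, 1.08 and 0.130 in Six2+ and at 21.6, 23.8 and 9.14 in Six2- (log2 fold change -3.49, SE 0.35, adjusted p = 7.16e-05). Pecam1, the homophilic adhesion protein CD31, stood at 0.0570, 0.350 and 0 against 5.28, 7.09 and 4.02 (log2 fold change -2.49, SE 0.21, adjusted p = 2.36e-05). Six2+ replicate 2 was the highest of its group for both, and Six2- replicate 3 the lowest of its group. Esam and Icam2, adhesion proteins of the tight junction and the surface, and Ecscr, a regulator of endothelial movement, had log2 fold changes of -1.82, -1.87 and -2.001 (SE 0.26, 0.24 and 0.19; adjusted p = 0.000619, 0.000307 and 5.24e-05). Myct1 lay at most at 0.0932 in Six2+ and at least at 0.611 in Six2- (unfiltered adjusted p = 0.00565).

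Cd34 and Plvap were the surface genes that kept the largest share of their Six2- level in E16.5 Six2+ cells. Cd34, a sialomucin of endothelium and several stem cell types, stood at 3.42, 3.42 and 2.46 in Six2+ and at 9.01, 13.3 and 10.9 in Six2-, 28.0% of the Six2- level (log2 fold change -1.55, SE 0.17, adjusted p = 0.000144). Plvap, which builds the diaphragms of fenestrated endothelium, stood at 4.19, 5.24 and 4.89 against 11.9, 13.4 and 5.59. The groups did not overlap, but Six2- replicate 3 was close to the Six2+ libraries. Plvap had a log2 fold change of -0.90 (SE 0.27, adjusted p = 0.0292), and this call was lost with no filter (0.0764) or without any one of Six2+ replicates 1, 2 or 3 (0.0882, 0.0579 and 0.0656) or Six2- replicates 1 or 2 (0.0869 and 0.0993).

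**Figure D3:**
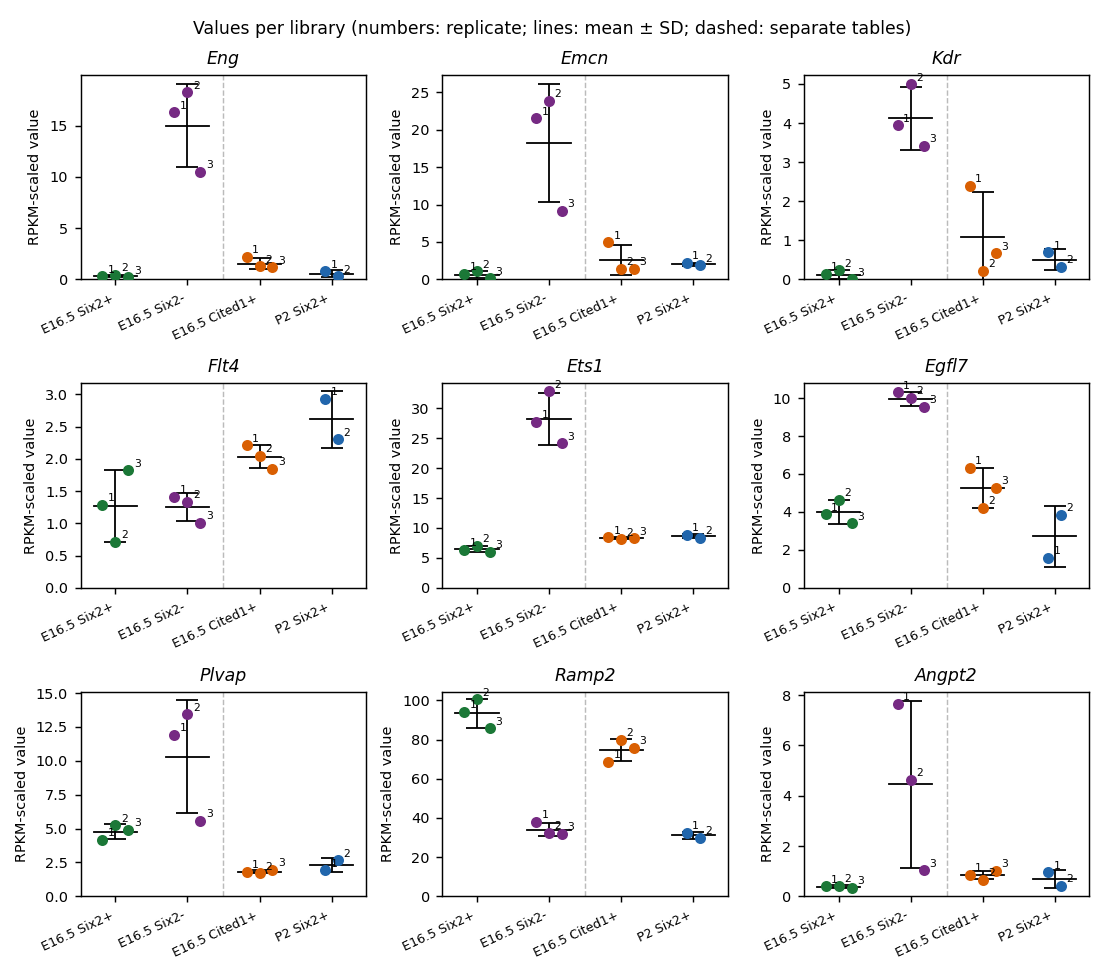
RPKM-scaled values of 9 endothelial genes in each library (points, numbered by replicate), with group means ± SD as lines and a dashed line between the separately deposited tables. Eng, Emcn and Kdr are near 0 in E16.5 Six2+ cells, Flt4 overlaps between Six2+ and Six2-, and Ramp2 is highest in Six2+ cells, at 85.8 to 100.5.

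The C-type lectin receptors Cd93 and Clec14a and the matrix protein Mmrn2, which binds both, are a group of vessel-sprouting proteins. Cd93 stood at 0.111, 0.207 and 0.105 in Six2+ and at 3.38, 4.04 and 2.495 in Six2- (log2 fold change -1.90, SE 0.17, adjusted p = 3.84e-05). Clec14a and Mmrn2 were lower in the unfiltered fit (adjusted p = 0.0103 and 0.000438) and kept 19.4% and 10.6% of their Six2- level. Of the secreted factors, Egfl7, an endothelial matrix protein, stood at 3.88, 4.65 and 3.39 in Six2+ and at 10.3, 10 and 9.54 in Six2-. It was lower by a log2 fold change of -1.15 (SE 0.14, adjusted p = 0.000222) yet kept 40.0% of its Six2- level. Egfl7 overlaps Gm20532 and the microRNA gene Mir126a on the same strand, and Mir126b and Agpat2 on the opposite strand. Agpat2 stood at 9.38 ± 1.26 (SD, n = 3) in Six2+ and 10.95 ± 0.944 (SD, n = 3) in Six2- and was not called (log2 fold change -0.21, SE 0.14, adjusted p = 0.262). Vwf, the clotting factor stored by mature endothelium, did not exceed 0.332 in any library and was lower in the unfiltered fit (adjusted p = 0.0157), a call lost without Six2+ replicate 1 (0.0526).

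The arterial genes were low throughout. Gja4, Gja5 (arterial connexins) and Nos3 (endothelial nitric oxide synthase) had Six2- values between 0.364 and 1.03 and Six2+ values up to 0.123, and all were lower in the unfiltered fit (adjusted p = 0.000362, 0.00277 and 0.00103). Lyve1, a hyaluronan receptor of lymphatic and sinusoidal endothelium that tissue macrophages also express, stood at 0.0273, 0.0497 and 0 in Six2+ and at 2.05, 2.43 and 2.80 in Six2- (log2 fold change -1.73, SE 0.15, adjusted p = 3.08e-05). Lyve1 and Sox18 were the 2 members with their highest Six2- value in replicate 3.

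Markers of stroma and blood cells were also lower in Six2+ cells, as were most podocyte markers. The summed level of 16 stromal and mural markers was 101.7 to 126.5 in Six2+ and 2258 to 3357 in Six2-. That of 19 macrophage and leukocyte markers was 4.20 to 18.6 against 128.4 to 187.4. The 10 erythroid markers summed to 12.03 to 51.6 against 827, 4894 and 8575 in Six2- replicates 1, 2 and 3. The 10 platelet markers summed to 0.426 to 1.02 against 9.78 to 12.3. Several members, among them Fli1, Ets1, Cd34, Tal1 and Lyve1, are also expressed by blood cells or stroma, and the part of those cells in their values was not tested. Of the 8 podocyte markers 6 were called lower in Six2+ cells and Wt1, which progenitors also express, higher (log2 fold change 1.26). Their sums overlapped, at 89.9 to 111.0 in Six2+ and 57.0 to 152.9 in Six2-. Most of the Six2+ sum was Wt1, at 102.8, 83.4 and 101.1 in Six2+ replicates 1, 2 and 3. The 10 progenitor markers summed to 1045 to 1156 in Six2+ and 103.9 to 144.8 in Six2-.

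Six2- replicate 3 stood below the other Six2- libraries for most endothelial genes. Over the 27 members that averaged 1 or more in Six2- cells, its value divided by the mean of replicates 1 and 2 had a median of 0.650, from 0.169 for Angpt2 to 1.25 for Lyve1. It was the lowest library for 23 of these 27 (85.2%), against 45.6% of the 11965 genes with such a mean, whose median ratio was 0.967. The stromal and mural markers had a median ratio of 0.671 and the leukocyte markers 0.909. The same library had the highest Six2 (17.0) and Cited1 (5.01) values of its group, and the highest erythroid sum; the part of these in the endothelial ratio was not tested. Leaving it out changed the count of members called lower in the unfiltered fit from 34 to 35, through Plvap (log2 fold change -1.25, adjusted p = 0.00253).

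**Figure D4:**
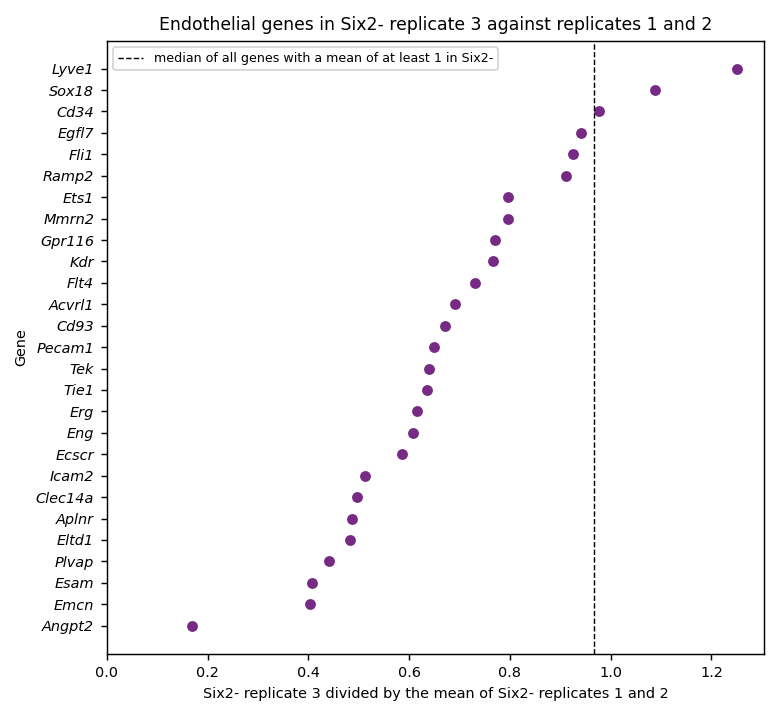
Value in Six2- replicate 3 divided by the mean of Six2- replicates 1 and 2 for each endothelial gene with a Six2- mean of at least 1 (points), with the median of all such genes as a dashed line at 0.967. Most points lie left of the line, from 0.169 for Angpt2 upward, and Lyve1 lies farthest right at 1.25.

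A list of 19 secreted or membrane-bound vascular ligands held partners of the members and others, such as Cxcl12 and Efnb2, whose receptors are not members. In Six2+ against Six2- cells 14 were tested, and 8 were lower and 2 higher, where 18.1% and 20.5% of all genes tested were. Figf, Apela, Adm, Tgfb1 and Pdgfb averaged under 1 in Six2+ cells and passed the filter through the Six2- libraries. The lymphatic signal Figf (VEGF-D) stood at 0.176, 0.321 and 0.126 in Six2+ and at 29.0, 24.0 and 14.7 in Six2- (log2 fold change -4.24, SE 0.23, adjusted p = 1.9e-06). Tgfb1 (-2.91), the apelin receptor ligand Apela (-2.76), adrenomedullin, encoded by Adm (-2.73), and the chemokine Cxcl12 (-2.20) were lower too on the log2 scale. Pgf, a ligand of Flt1, was higher at 13.2, 16.6 and 13.5 against 2.30, 1.97 and 1.29 (log2 fold change 2.45, SE 0.17, adjusted p = 8.52e-06). Vegfc, the ligand of Flt4 and named after its values were seen, was the other that rose, at 13.0 to 16.3 in Six2+ against 4.60 to 6.02 in Six2- (log2 fold change 1.33, SE 0.14, adjusted p = 0.000107).

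A second list of 58 genes expressed by endothelium, outside the 37, gave 30 lower and 3 higher among 41 tested, against 18.1% and 20.5% of all genes tested. Among the lower genes, Podxl, Rhoj and Cav1 are examples that averaged under 1 in Six2+ cells and passed the filter through the Six2- libraries. The number called lower therefore says little by itself. With no filter 41 of the 58 were called lower and 2 higher, against 16.7% and 13.9% of all genes in that fit. The 3 genes higher in the filtered fit, named after their values were seen, were Hey1 (log2 fold change 1.07, SE 0.26), Ptprm (0.62, SE 0.17) and Pdpn (0.59, SE 0.20). Without Six2- replicate 2, or with libraries rescaled to the same total, 1 gene was higher and the calls of Ptprm (adjusted p = 0.0513 and 0.0841) and Pdpn (0.147 and 0.129) were lost. The Pdpn call was also lost with no filter (adjusted p = 0.0830) or with libraries centred to the same median (0.0537). It was lost as well without Six2+ replicate 1 (0.139) or 3 (0.0818) or Six2- replicate 1 (0.1095). The largest changes were in Igfbp3 (log2 fold change -4.61, SE 0.13), Fabp4 (-4.15, SE 0.46), Podxl (-3.76, SE 0.44), Rhoj (-3.68, SE 0.17), Cav1 (-3.30, SE 0.21) and Tm4sf1 (-3.08, SE 0.21), all lower in Six2+ cells. Igfbp3, a binding protein for insulin-like growth factors, fell from 74.4 ± 4.01 (SD, n = 3) in Six2- to 2.10 ± 0.343 (SD, n = 3) in Six2+. Podxl is also a podocyte gene, with Six2- values of 46.7, 21.9 and 9.71. In the authors' deposited table of genes lower in Six2+ cells, 6 of the 545 genes are members: Pecam1, Eng, Fli1, Ets1, Cd34 and Acvrl1. None is among the 246 of the authors' higher list.

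Across all 4 groups, set side by side without a test because the tables were deposited separately, the Six2- cells held the highest mean for 34 of the 37 members. The exceptions were Ramp2, highest in E16.5 Six2+ cells, Gja5, highest in Cited1+ cells, and Flt4, highest in P2 Six2+ cells. For Gja5 the libraries overlapped, at 1.01, 0.178 and 0.523 in Cited1+ and 0.466, 0.563 and 0.364 in Six2- cells. The lowest mean was in E16.5 Six2+ cells for 25 members and in P2 Six2+ cells for 10. Without Ramp2 the members summed to 20.95 to 27.3 in E16.5 Six2+, 30.0 to 49.2 in Cited1+ and 28.0 to 30.6 in P2 Six2+ cells. All 3 progenitor sorts therefore lay far below the 131.3 to 209.5 of Six2- cells. The number of members at 1 or above was 6 in each E16.5 Six2+ library, 9 to 15 in Cited1+, 8 and 9 in P2 Six2+ and 24 to 31 in Six2- cells.

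In Cited1+ cells at E16.5 against Six2+ cells at P2, most of the endothelial genes were low in both groups, and Ramp2 and Ets1 were the highest. Of the 36 members with a value above 0 at P2, 30 had a higher mean in Cited1+ cells and 6 a lower one, with a median of 169.6% of the P2 mean. That percentage rests largely on values near 0, and these means were compared without regard to the spread between libraries. The filter kept 9 of the 37 members. Ramp2 was called higher in Cited1+ cells, against 16.3% of the 11876 genes tested, and no member was called lower, against 12.7%. With no filter Sox18 was added to the higher members, so 2 of 37 were higher and 0 lower, against 5.42% and 5.62% of the 20997 genes in that fit. The share of members called higher is thus that of all genes. The values of the groups did not overlap for 12 members that were higher and 3 that were lower in Cited1+ cells, against 24.4% and 17.3% of all genes in the unfiltered fit.

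Ramp2 stood at 68.6, 80.0 and 75.9 in Cited1+ and at 32.5 and 29.9 in P2 Six2+ cells. The libraries were clearly apart, with a log2 fold change of 1.23 (SE 0.11, 95% interval 0.98 to 1.49, adjusted p = 0.000296); in the unfiltered fit the adjusted p was 0.00477, and 0.0537 without P2 replicate 2. Vps25, which overlaps it, had a log2 fold change of -0.37 (SE 0.13, adjusted p = 0.0688), the other direction. Its partner Calcrl stood at 14.5, 17.8 and 11.7 in Cited1+ and at 1.93 and 2.25 in P2 Six2+ cells (log2 fold change 2.33, SE 0.18, adjusted p = 0.000155). In this comparison the receptor and its accessory protein were thus both higher in Cited1+ cells. Sox18 stood at 0.571, 0.649 and 0.608 against 0 and 0.149 (unfiltered log2 fold change 0.59, adjusted p = 0.0206), a call lost without Cited1+ replicate 1 (0.0912) or either P2 library (0.0865 and 0.0617), with 1 P2 library then assumed to vary like the Cited1+ libraries.

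The other members that passed the filter were not called. Eng stood at 2.17, 1.27 and 1.18 in Cited1+ and at 0.765 and 0.287 in P2 Six2+ cells, with a log2 fold change of 0.73 (SE 0.24, adjusted p = 0.0572). Cd34 stood at 2.55, 1.54 and 1.66 against 1.11 and 0.529 (0.68 on the log2 scale, SE 0.23, adjusted p = 0.0587). Their groups did not overlap, and neither passed the threshold. Egfl7 stood at 6.31, 4.23 and 5.28 against 1.57 and 3.86 (log2 fold change 0.81, SE 0.28, adjusted p = 0.0631). It passed without Cited1+ replicate 2 (0.0439) or without P2 replicate 2 (0.0213), and it is the member on the authors' deposited list of 137 genes higher in Cited1+ cells, whose ratios compare with the first P2 library. Flt4 stood at 2.21, 2.05 and 1.85 against 2.93 and 2.30, with a log2 fold change of -0.25 (SE 0.16, 95% interval -0.61 to 0.12, adjusted p = 0.260).

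Ets1 was near level, at 8.45, 8.14 and 8.31 in Cited1+ and 8.82 and 8.38 in P2 Six2+ cells (log2 fold change -0.05, SE 0.11, adjusted p = 0.767). Emcn stood at 4.97, 1.38 and 1.40 against 2.17 and 1.90 (log2 fold change 0.10, SE 0.39, adjusted p = 0.868), and its sign turned to -0.34 without Cited1+ replicate 1. Plvap (log2 fold change -0.21, SE 0.16) and Gpr116 (0.21, SE 0.16) were not called either (adjusted p = 0.350 and 0.361). Plvap lay between 1.71 and 2.66 in all 5 of these libraries. The remaining 28 members were below the filter, and Nos3 was listed at 0 in both P2 libraries.

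**Figure D5:**
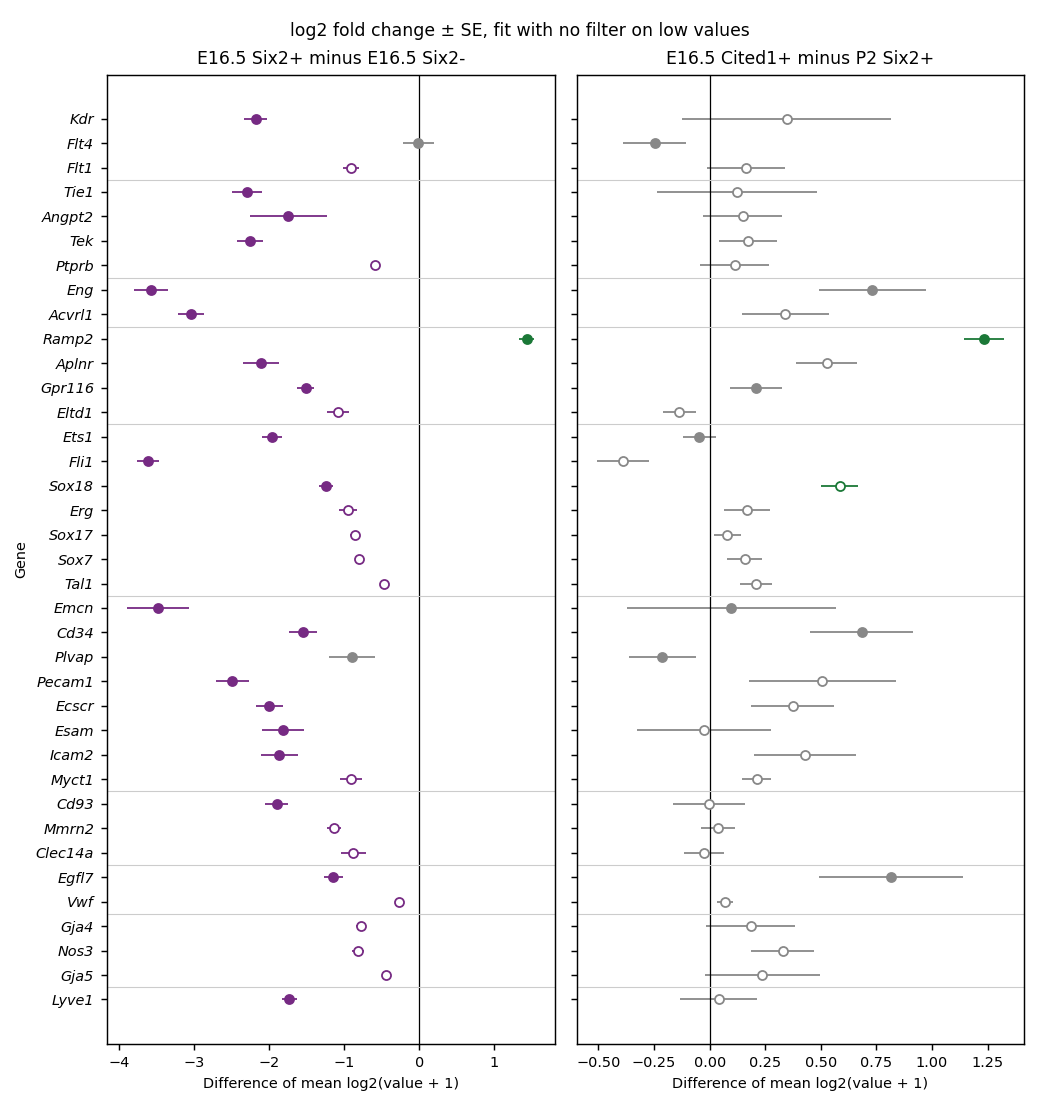
Difference of mean log2(value + 1) ± SE for each endothelial gene in the fit with no filter on low values, for E16.5 Six2+ minus Six2- (left) and Cited1+ minus P2 Six2+ (right); filled points passed the filter on low values, and grey points were not called. On the left 34 genes are called lower and Ramp2 higher, and on the right Ramp2 and Sox18 are called higher.

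Cited1+ replicate 1 lay above the other Cited1+ libraries for many members. Kdr stood at 2.39 in it and at 0.215 and 0.667 in replicates 2 and 3, and Tie1 at 1.59 against 0.167 and 0.744. It was the highest Cited1+ library for 9 of the 11 members that averaged 1 or more there (81.8%), against 29.1% of the 11771 genes with such a level. Over all 37 members, most of them lower, it was the highest for 22 (59.5%). The median ratio of replicate 1 to the mean of the other two was 1.33 over the 11 members and 1.02 over those genes.

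Of the 19 ligands, 11 were tested between Cited1+ and P2 Six2+ cells, and 2 were higher and 5 lower in Cited1+ cells, against 16.3% and 12.7% of all genes. Pgf stood at 9.53, 10.4 and 9.41 in Cited1+ and at 0.310 and 0.323 in P2 Six2+ cells (log2 fold change 3.03, SE 0.13, adjusted p = 1.6e-05). Vegfc stood at 2.06, 2.26 and 2.89 against 20.2 and 14.3 (log2 fold change -2.41, SE 0.18, adjusted p = 0.000152). Bmp4 (-2.22, SE 0.11), the arterial ephrin Efnb2 (-1.21, SE 0.15) and Cxcl12 (-0.89, SE 0.12) were also lower on the log2 scale. Angpt1, the activating ligand of Tek, was higher by 0.60 (SE 0.18, adjusted p = 0.0397), a call lost without Cited1+ replicate 1 (0.0954) or either P2 library (0.0912 and 0.116), with no filter (0.0523) and with libraries centred to the same median (0.0646).

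Of the 58 further endothelial genes, 37 were tested, and 7 were higher and 13 lower in Cited1+ cells, where 16.3% and 12.7% of all genes tested were. Leaving out 1 library at a time gave 2 to 11 higher and 9 to 12 lower, with 2 higher without Cited1+ replicate 1 or P2 replicate 2. The largest changes beside Calcrl were in the claudin Cldn5 (log2 fold change -2.68, SE 0.15), the Notch targets Hey2 (-2.58, SE 0.17) and Hey1 (-2.40, SE 0.12), Tspan18 (-1.91, SE 0.14) and the basement membrane protein Nid2 (-1.90, SE 0.12). Hey1, Hey2 and Cldn5 are also expressed by nephron epithelium, and the podocyte markers summed to 116.7 to 137.8 in Cited1+ and 297.8 to 306.4 in P2 Six2+ cells. Most of these sums was Wt1, at 111.8, 127.9 and 98.5 in Cited1+ and 254.4 and 256.3 in P2 Six2+ cells. The part of nephron epithelium and podocytes in the values of Hey1, Hey2 and Cldn5 was not tested. The leukocyte markers summed to 11.9 to 18.2 against 37 to 42.2, and the stromal and mural markers to 172.3 to 193.9 against 121.8 to 147.5. Of these last markers 14 were tested, with 7 higher and 5 lower in Cited1+ cells. Collagen genes such as Col1a1 (log2 fold change 2.12) and Col3a1 (1.59) were higher, and the genes called lower were Acta2 (-1.13), Tagln (-1.23), Cspg4 (-0.73), Pdgfrb (-0.62) and Mcam (-0.57), several of them mural, all named after their values were seen.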

How the data were processed

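Per the labels' protocols, RNA of the sorted cells was purified on Qiagen RNeasy micro columns and Kapa stranded mRNA-Seq libraries were prepared. Tools listed in the submitters' processing notes are bcl2fastq 2.17, TopHat2 and Partek, with build mm10. The way reads were counted, and whether by strand, is not given in these sources, so overlapping genes are uncertain (8 members overlap exons on the opposite strand and 2 on the same strand). The authors deposited values under the name TPM that scale as RPKM: the library sums ran from 321882.9 to 433447.3 (coefficient of variation 8.95%), and sums weighted by GENCODE M21 transcript length varied by 3.12%. The design assumed normalized values and its test was kept. The ratio and p-value columns in the deposited tables are the authors' own; the ratios equal group means with 0.01 added, and in the second table they use the first P2 library only. A total of 27 rows per table with a date as symbol (0.125% to 0.215% of the values) were left out.

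Each deposited table was fitted on its own with limma 3.58.1 (R 4.3.3). The response was log2(value + 1) with a mean-variance trend, genes averaging under 1 were left out, and Benjamini-Hochberg adjustment ran over all genes tested, at 0.05. The tests are two-sided. The fit was tested on simulated data. The members, gene lists and tests were chosen with earlier results of these data known. Members named with values are those with the highest level in each role group and those against the majority; from the ligand and further endothelial lists, up to 6 called genes with the largest change. Values of further members were added after they were seen. Alternatives were other pseudocounts, filters, scalings, no trend, a replicate block and each library left out. In the Six2+ and Six2- groups same-numbered libraries deviated together (correlations 0.47, 0.455 and 0.404), so the numbers pair them as far as the data show. Coordinates are on GRCm38.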

Additional observations from a re-analysis of the deposited data

How the results depend on the processing

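Over the single members named, 293 recomputed values in the Six2+ against Six2- comparison kept their direction and side of the threshold, 6 lost the call and 3 reversed; in the Cited1+ against P2 comparison 103 kept both, 5 gained a call and 1 reversed. The count of members called lower in Six2+ cells was 21, 34 with no filter, 7 with a mean filter of 5, and 18 to 21 with 1 library left out; with no filter it was 32 to 35 with 1 library left out, a setting also chosen after seeing the data. With only the 35 members found by symbol, chosen after seeing the data, 20 were lower and 1 higher. With 1 library left out Flt4 ranged from -0.18 to 0.18 and reversed to 0.18, 0.04 and 0.02 without Six2+ replicate 2, Six2- replicate 1 and Six2- replicate 2, and Emcn in the second comparison ranged from -0.34, without Cited1+ replicate 1, to 0.32; the cause was not tested. The replicate block changed no member's call in the first comparison (21 lower, 1 higher), while genes called higher over the whole table went from 2440 to 3603 and lower from 2149 to 2632.

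Genes called higher in Six2+ cells were 1546 with libraries rescaled to the same total, which moved the share of higher calls from 53.2% to 42.3%, and 1618 to 2382 with 1 library left out; genes called lower were 1230 with a mean filter of 5. In the second comparison the rescaling moved that share from 56.1% to 46.5%. Genes called higher there were 1930, 1139 with no filter and 791 to 3012 with 1 library left out, and genes called lower 788 to 2145. The numbers pair no libraries there (correlations 0.042 and -0.028); the replicate block over 4 libraries gave 896 higher and 909 lower genes and 1 higher member, also 1 with no filter. Members called higher there were 1, 2 with no filter, 3 with no mean-variance trend (Eng and Cd34 added), 1 to 3 with 1 library left out and, with no filter, 0 to 5. Depth limits the lowest members, with single reads roughly estimated at up to 0.105, and 2 P2 libraries limit the second comparison.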
